A study of Mus musculus with 9 samples.

Results

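The comparison described here is that of histone H3 lysine 27 acetylation (H3K27ac) in oligodendrocytes (OL) with that in oligodendrocyte progenitor cells (OPC), made from the H3K27ac peak lists of 4 of the 9 samples in the series. The 4 lists are the OL and the OPC of 129O1 and EpiSC5, both mouse lines of epiblast stem cells, so that each state has 2 lists and the lines serve as the replicates. OL are O1-positive cells, called intermediate in the labels and collected with an automated magnetic sorter. OPC are cells of the same lines, sorted on CD140a and NG2 after several passages and kept in medium with bFGF and PDGFA. Both states descend from epiblast stem cells of mouse strains 129SvEv and 129S1/SvImJ, were grown without SHH, and are culture models of 1 line each rather than cells of a brain. The value studied is the length of DNA under a peak, in kb, within the body of a gene and 10 kb on each side of it, after each list was scaled to the same total covered length. A gene is called wider or narrower in OL where the limma test gave an adjusted p (Benjamini-Hochberg) under 0.05 and both lines had the same sign. Of 20665 protein-coding genes on chromosomes 1 to 19, 12114 had a mean of at least 1 kb and were tested.

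H3K27ac is placed by acetyltransferases such as p300 on nucleosomes at active promoters and enhancers, and wide stretches of it are known to mark the genes that a cell type uses most. OPC are dividing glial cells held in the cell cycle by platelet-derived and fibroblast growth factors. On leaving the cycle they become OL, which extend branched processes, turn over their actin and microtubule skeleton, and make the lipid-rich membrane that is wrapped around axons as myelin.

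The OL lists held 33058 peaks for 129O1 and 30443 for EpiSC5, against 29975 for 129O1 and 26967 for EpiSC5 in the OPC lists. They covered 49.98 and 42.79 Mb in OL, against 47.33 and 36.23 Mb in OPC, always in the order 129O1 and EpiSC5, which holds for every pair of values below. The median fold enrichment by the authors' peak caller was 3.86 and 3.89 in OL, against 4.22 and 4.08 in OPC, and the median −log10 q was 10.8 and 9.504 in OL, against 17.6 and 12.8 in OPC. The number of reads behind a list is not known from a peak list, so no counting interval can be given, and the runs on 2 sequencer models are not assigned to libraries in the labels. Pdgfra, which encodes the CD140a antigen of the OPC sort, had 2.25 and 1.59 kb in the OL lists, against 14.1 and 15.97 kb in the OPC lists, a change of −2.46 ± 0.20 (adjusted p = 0.00192). Cspg4, which encodes NG2, had 10.9 and 10.1 kb in the OL lists, against 15.7 and 14.8 kb in the OPC lists and was not called (−0.49 ± 0.16 (adjusted p = 0.0634)). Of 43 oligodendrocyte markers tested, 29 were wider and 1 narrower, and their summed length was 726.5 and 799.0 kb in the OL lists, against 249.4 and 253.6 kb in the OPC lists. The 30 OPC markers summed to 348.4 and 338.6 kb in the OL lists, against 340.1 and 363.0 kb in the OPC lists, with 2 wider and 12 narrower of 29 tested. Markers of other cells were covered less. Astrocyte markers (13 of 14 tested, 2 wider, 3 narrower) summed to 83.6 and 46 kb in the OL lists, against 75.0 and 68.3 kb in the OPC lists. Neuron markers (9 of 16 tested, 1 wider, 2 narrower) summed to 40.6 and 30.7 kb in the OL lists, against 60.6 and 63.5 kb in the OPC lists, with Slc17a6, Gad2, Nefl and Stmn2 at 0 in every list. Microglia markers (4 of 12 tested, 1 wider) summed to 12.3 and 9.3 kb in the OL lists, against 13.5 and 14.1 kb in the OPC lists, with Cx3cr1, Itgam, C1qa, C1qb and Trem2 at 0. Pluripotency genes (6 of 14 tested, none called) summed to 22.4 and 20.5 kb in the OL lists, against 30.8 and 29.2 kb in the OPC lists, with Otx2, Dppa4 and Dppa5a at 0. Schwann cell and neural crest genes (8 of 11 tested, 1 wider, 2 narrower) summed to 35.7 and 37.2 kb in the OL lists, against 32 and 30 kb in the OPC lists. The part of other cell types in the results was not tested.

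In OL 1543 of the 12114 genes were wider than in OPC, which is 12.7%, and 2053 were narrower, which is 16.9%. These percentages are the background for every family below. Nearly all of these genes lie outside the marker lists of cell types and lineage, with 1502 wider and 2010 narrower genes there. The median change on the log2(kb + 1) scale was 1.05 among wider genes and −0.94 among narrower ones, with a median standard error of 0.19 over all genes. A change of at least 1 in both lines was seen for 620 genes in the wider direction (5.12%) and 451 in the narrower direction (3.72%), and for 2 genes the lines moved that far in opposite directions. The median gene stood at −0.24 after scaling, and single changes should be read relative to it. With changes centred on the median gene, 1482 genes were wider (12.2%) and 526 narrower (4.34%), so the number wider hardly moved while the number narrower depended on the scaling. The centred counts are therefore given beside the main ones. Because a gene passed the filter on its mean, 441 genes were tested only through their OL lists and 1290 only through their OPC lists. A gene of either kind had to differ between the states, so a family's share of calls is a description. The number of such members and the counts at the 3 kb filter are given for the families described with their members and some others. The counts of the remaining families carry the same limit. Without the 129O1 OPC list limma called 0 genes in either direction, with 2751 genes at an unadjusted p under 0.05. Without the EpiSC5 OPC list it also called 0, with 2400 at an unadjusted p under 0.05. Without the EpiSC5 OL list it called 608 wider (5.02%) and 471 narrower (3.89%), and without the 129O1 OL list 1169 wider (9.65%) and 2229 narrower (18.4%). Each of these fits without 1 list also dropped the cell line term, and with it the pairing of the states. Its sign rule asked that the remaining lists of the states not overlap, so more than the list differed from the main fit. With the higher-scoring 50% of peaks 271 were wider (2.58%) and 137 narrower (1.31%). With a filter at a mean of 3 kb, 1236 of 5762 genes were wider (21.5%) and 1215 narrower (21.1%). Without scaling 1071 were narrower (8.86%), by number of peaks 573 (4.45%), and in a model without the cell line 1356 (11.2%). No p-value here covers more than the spread among these 4 lists.

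**Figure D1:**
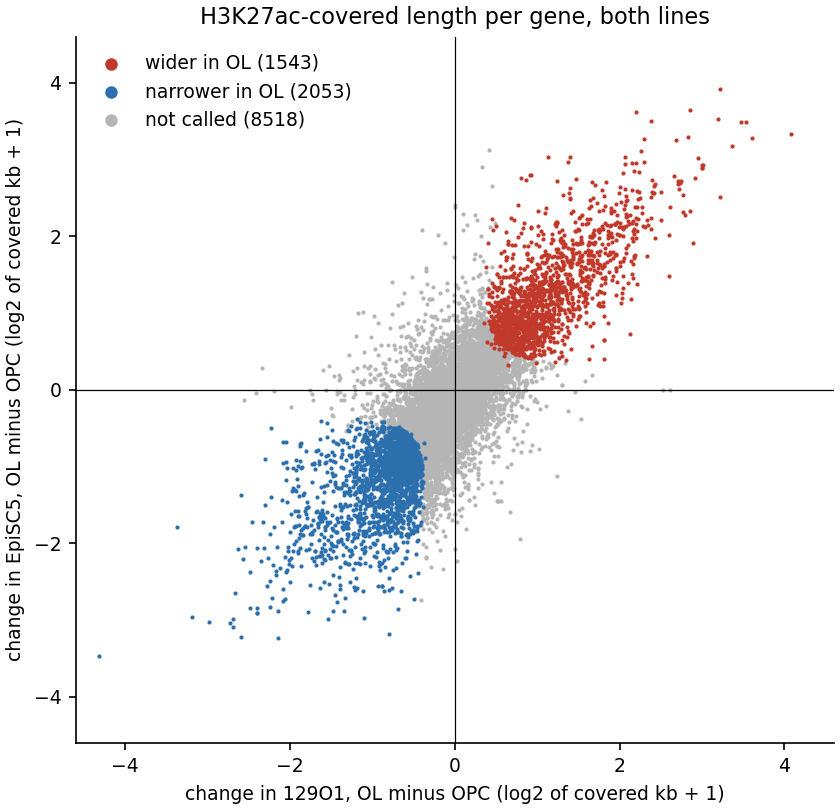
Change in H3K27ac-covered length in OL relative to OPC, on the log2(kb + 1) scale, in line 129O1 (horizontal axis) and in line EpiSC5 (vertical axis), with 1 point for each of the 12114 genes tested, wider genes in red and narrower ones in blue. Of these genes, 27.1% were higher in OL in both lines and 57.4% lower in both.

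Most wider genes held a region found in OL alone, and few held one at their promoter. Merging the 4 lists gave 48550 regions, of which 14591 were present in all 4 lists, 8217 in both OL lists and no OPC list, and 5291 in both OPC lists and no OL list. Regions that followed the line rather than the state were fewer, with 1160 found in the OL and OPC of 129O1 alone and 216 in those of EpiSC5 alone. A region of OL alone was found in the windows of 87.62% of wider genes, against 34.18% of all genes tested. A region of OPC alone was found in 51.97% of narrower genes, against 19.56% of all tested. These shares restate the covered length and are no separate evidence. The median gene body was 51.6 kb long among wider genes and 29.7 kb among narrower genes, against 25.6 kb among all tested genes. Longer windows can hold more covered length, and the part of gene length in the calls was not tested.

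A promoter peak in OL alone or in OPC alone was found at a small share of the called genes. RefSeq promoter windows of 300 bases (250 before to 50 after a start, build GRCm38.p6, which mm10 names) were available for 1237 wider genes, 1585 narrower genes and 9732 of all tested genes. Among wider genes 58.04% had a promoter peak in all 4 lists and 2.99% (37 genes) in both OL lists alone. Among narrower genes 41.96% had one in all 4 lists, and 12.74% (202 genes) had one in both OPC lists alone. Over all tested genes those shares were 61.02% in all 4 lists, 0.64% in OL alone and 4.3% in OPC alone. Base composition was counted for the same windows. Over 20085 promoter windows, each counted by itself, those with a peak in OL alone had a median of 5 CpG dinucleotides, and the 754 with a peak in OPC alone had a median of 19. Windows with a peak in all 4 lists had a median of 24, windows with none 4, and all windows 14. The letters GGGCGG, the core of the GC box bound by Sp factors, were found on either strand in 27.6% of OL-alone windows and 63.9% of OPC-alone windows, against 47% of all windows. The letters CAGCTG, an E box bound by basic helix-loop-helix factors and identical on both strands, were found in 28.5% of OL-alone windows (35 windows) and 18.3% of OPC-alone windows (138 windows), against 15.6% of all windows. ACAAT, a core bound by SOX factors, was found on either strand in 35% of OL-alone windows and 17.8% of OPC-alone windows, against 26.8% of all windows. None of these 3 motifs contains another. These shares describe letters and not bound sites, and windows of low CpG content hold fewer GC boxes by composition. The part of base composition in the shares of ACAAT and CAGCTG was not tested.

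Promoter windows of 7 genes named below are printed from RefSeq, 4 with a peak in OL alone and 3 with a peak in OPC alone, picked after their values were seen to show the range of CpG content in each set, 5′ to 3′ on the strand of the gene, with every CG and every CAGCTG in capitals. The first 4, all with a peak in both OL lists alone, are those of Sema4d at chr13:51756634-51756933 on the minus strand, Rasgrp3 at chr17:75465288-75465587 on the plus strand, Fgf7 at chr2:126034408-126034707 on the plus strand and Rgs16 at chr1:153740103-153740402 on the plus strand. The other 3, with a peak in both OPC lists alone, are those of Cit at chr5:115845406-115845705 on the plus strand, Cdc25b at chr2:131186698-131186997 on the plus strand and Gbx2 at chr1:89931127-89931426 on the minus strand.
Sema4d: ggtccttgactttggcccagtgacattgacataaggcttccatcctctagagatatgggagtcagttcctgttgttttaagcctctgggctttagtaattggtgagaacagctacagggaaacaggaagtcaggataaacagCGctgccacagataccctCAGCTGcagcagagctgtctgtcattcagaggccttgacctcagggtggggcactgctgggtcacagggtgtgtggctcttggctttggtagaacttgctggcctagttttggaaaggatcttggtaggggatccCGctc
Rasgrp3: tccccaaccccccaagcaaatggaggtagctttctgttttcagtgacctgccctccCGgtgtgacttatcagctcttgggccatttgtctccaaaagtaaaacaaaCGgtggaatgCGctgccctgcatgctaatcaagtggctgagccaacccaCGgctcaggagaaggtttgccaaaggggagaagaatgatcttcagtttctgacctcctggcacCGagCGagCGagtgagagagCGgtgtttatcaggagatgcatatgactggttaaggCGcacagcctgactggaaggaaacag
Fgf7: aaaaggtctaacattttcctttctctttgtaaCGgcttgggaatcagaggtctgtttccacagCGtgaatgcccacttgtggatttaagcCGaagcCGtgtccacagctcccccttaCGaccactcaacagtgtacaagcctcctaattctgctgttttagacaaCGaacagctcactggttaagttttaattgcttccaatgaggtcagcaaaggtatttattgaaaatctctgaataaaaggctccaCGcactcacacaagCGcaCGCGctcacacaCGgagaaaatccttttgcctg
Rgs16: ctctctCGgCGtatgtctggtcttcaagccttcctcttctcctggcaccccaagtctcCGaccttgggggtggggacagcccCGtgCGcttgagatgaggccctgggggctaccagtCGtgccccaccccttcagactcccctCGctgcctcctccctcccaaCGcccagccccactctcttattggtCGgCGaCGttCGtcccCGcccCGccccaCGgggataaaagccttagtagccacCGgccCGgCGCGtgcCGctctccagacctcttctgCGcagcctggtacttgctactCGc
Cit: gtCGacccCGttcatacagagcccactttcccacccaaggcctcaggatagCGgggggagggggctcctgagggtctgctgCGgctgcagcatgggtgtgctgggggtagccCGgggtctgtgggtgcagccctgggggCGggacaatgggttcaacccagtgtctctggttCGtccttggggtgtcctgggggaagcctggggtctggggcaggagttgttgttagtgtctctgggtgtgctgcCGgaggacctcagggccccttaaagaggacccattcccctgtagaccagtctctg
Cdc25b: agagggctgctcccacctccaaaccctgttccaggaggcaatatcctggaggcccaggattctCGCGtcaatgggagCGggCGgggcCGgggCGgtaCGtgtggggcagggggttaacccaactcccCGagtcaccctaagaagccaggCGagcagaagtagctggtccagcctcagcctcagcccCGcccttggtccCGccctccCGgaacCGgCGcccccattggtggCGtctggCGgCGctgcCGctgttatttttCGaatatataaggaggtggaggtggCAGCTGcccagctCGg
Gbx2: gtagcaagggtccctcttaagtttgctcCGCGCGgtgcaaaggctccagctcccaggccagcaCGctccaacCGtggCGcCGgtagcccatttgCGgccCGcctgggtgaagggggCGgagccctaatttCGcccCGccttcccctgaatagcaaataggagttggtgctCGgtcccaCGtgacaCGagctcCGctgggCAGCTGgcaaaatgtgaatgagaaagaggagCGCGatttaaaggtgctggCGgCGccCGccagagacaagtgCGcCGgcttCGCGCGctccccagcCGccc
The OL-alone windows hold 2 CG in Sema4d, 9 in Rasgrp3, 11 in Fgf7 and 22 in Rgs16, and the OPC-alone windows hold 8 in Cit, 20 in Cdc25b and 27 in Gbx2. The 2 sets overlap, also over the other named genes with such windows, with 3 CG in another window of Sema4d and 2 in one of Pou2f1 for OL alone, and 11 in Chrm3, 17 in both windows of Mest, 21 in Cyth3 and 22 in Nab2 for OPC alone. CAGCTG is present in those of Sema4d, Cdc25b and Gbx2, 1 time in each. The Sema4d window belongs to an inner start of the gene, and the gene has more than 1 promoter in RefSeq.

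Families of genes were matched by symbol, and 126 families took in 6183 of the tested genes. Family counts include members of the marker lists, except where these are said to be left out. Among those with at least 8 tested members in at least 5 separate loci, the 8 with the highest share of wider members and the 8 with the highest share of narrower members were chosen, and 15 of these 16 are described with their members. Those with high shares of wider members included regulators of Arf and Ras family GTPases, semaphorins with plexins, and protein kinases C and D. Ephrins and Eph receptors, also guidance molecules, were among those with high shares of narrower members. Where a gene had 0 kb in a state, its change depends on the added 1 kb and is not a fold. Peaks within 10 kb can belong to a neighbour. A neighbour is named at some genes, and a gene without one named can still share its peaks.

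**Figure D2:**
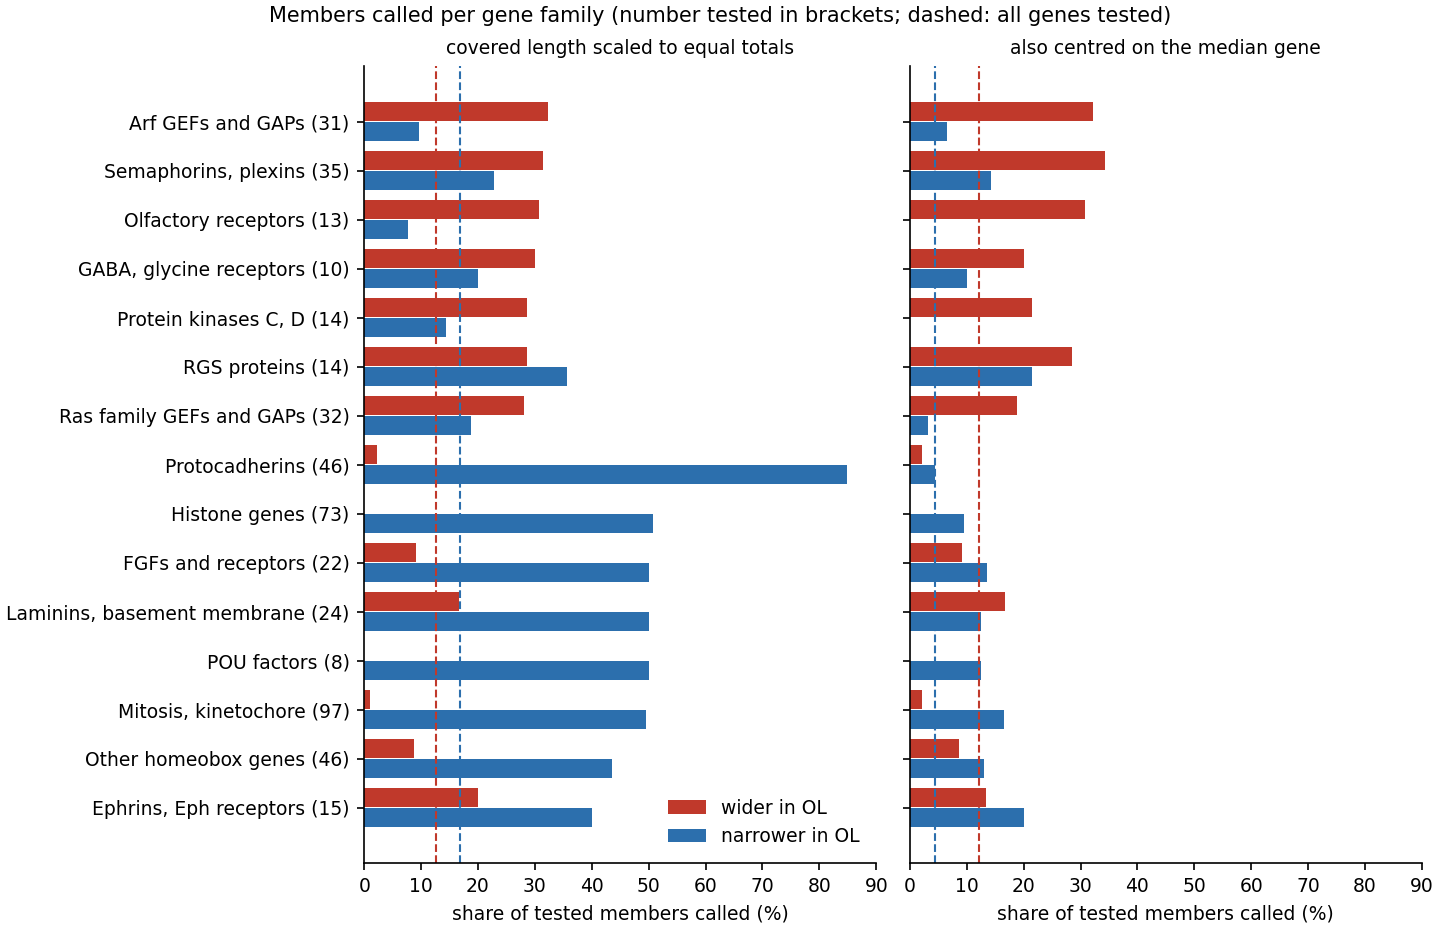
Share of tested members called wider (red bars) and narrower (blue bars) in OL than in OPC, in percent, for 15 of these families, with lengths scaled to equal totals (left panel) and also centred on the median gene (right panel). Dashed lines mark the shares over all tested genes, 12.7% wider and 16.9% narrower on the left, 12.2% and 4.34% on the right, and the long blue bars of the lower families shrink on the right.

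Arf GTPases govern vesicle budding and the recycling of membrane. Of 31 Arf exchange factors and GTPase-activating proteins tested, 10 were wider (32.3%) and 3 narrower, and 10 and 2 after centring, with a median change of 0.13. Of these, 1 member passed the filter only through OL and 2 only through OPC, and at 3 kb 10 were wider and 1 narrower of 25. Adap1 (chr5:139271876-139325763), a GTPase-activating protein for Arf6, had 7.07 and 6.64 kb in the OL lists, against 0 kb in both OPC lists, a change of 2.97 ± 0.18 (adjusted p = 0.00132). It had no peak in OPC of either line and 4 regions of OL alone. Git2, which joins Arf regulation to the paxillin and PIX complex, had 10.1 and 15.8 kb in the OL lists, against 2.598 and 3.52 kb in the OPC lists, a change of 1.76 ± 0.18 (adjusted p = 0.00287). Smap1, which acts in clathrin-dependent endocytosis, had 8.88 and 5.96 kb in the OL lists, against 2.45 and 1.43 kb in the OPC lists. Cyth3, an Arf exchange factor recruited by phosphoinositides, was narrower, with 0.341 and 0 kb in the OL lists, against 4.08 and 2.41 kb in the OPC lists and a change of −1.85 ± 0.21 (adjusted p = 0.00364). Its promoter had a peak in both OPC lists alone, and the call held after centring.

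Exchange factors and GTPase-activating proteins of the Ras, Rap and Ral family counted 9 wider (28.1%) and 6 narrower of 32, and 6 and 1 after centring. The median change was −0.27, just under that of the median gene, and at 3 kb 9 were wider and 7 narrower of 27, with 1 member tested only through OL. Ralgps1 (chr2:33133419-33371499), an exchange factor for Ral, had 74.7 and 70.2 kb in the OL lists, against 19.3 and 15.1 kb in the OPC lists, a change of 2.02 ± 0.14 (adjusted p = 0.00153). Its paralogue Ralgps2 went the other way, with 2.19 and 1.67 kb in the OL lists, against 5.46 and 5.83 kb in the OPC lists and a change of −1.19 ± 0.18 (adjusted p = 0.00765), and both calls held after centring. Rapgef1, an exchange factor for Rap1, had 59.6 and 56.5 kb in the OL lists, against 14.4 and 13.1 kb in the OPC lists, with OL far above OPC in both lines. Its number of peaks stood at −0.063 on the log2 scale, so the gain there was in covered length and not in the number of peaks. Rasgrp3, a Ras and Rap exchange factor opened by diacylglycerol, had 5.62 and 7.201 kb in the OL lists, against 1.51 and 0 kb in the OPC lists, a change of 2.22 ± 0.37 (adjusted p = 0.0094), and was not called after centring. The printed promoter window of Rasgrp3 is 1 of the few with a peak in OL alone.

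Protein kinases C, which respond to calcium and diacylglycerol, counted 4 wider (28.6%) and 2 narrower of 14 together with protein kinases D, and 3 and 0 after centring. Their median change, −0.40, lay under that of the median gene, with 9 members lower in OL in both lines and 4 higher in both. At 3 kb 4 were wider and 2 narrower of 9, and 2 of the 14 were tested only through OPC. Prkca had 42.6 and 34.5 kb in the OL lists, against 13.3 and 13.9 kb in the OPC lists, a change of 1.43 ± 0.16 (adjusted p = 0.00336), and 12 regions of OL alone. Prkcq had 9.16 and 12.3 kb in the OL lists, against 4.59 and 6.31 kb in the OPC lists, and Prkce had 17.1 and 15.1 kb in the OL lists, against 12.3 and 8.02 kb in the OPC lists, the second of these no longer called after centring. The atypical, polarity-linked Prkci had 2.06 and 1.401 kb in the OL lists, against 4.001 and 4.66 kb in the OPC lists, a change of −0.97 ± 0.20 (adjusted p = 0.0176), and was not called after centring. Regulators of G protein signalling, which speed up the GTPase of G alpha subunits, were split, with 4 wider (28.6%) and 5 narrower of 14 (4 and 3 after centring) and a median change of −0.51. Filtered at 3 kb, 1 was wider and 4 narrower of 6, and 2 of the 14 were tested only through OL and 3 only through OPC. Rgs6 had 5.57 and 4.19 kb in the OL lists, against 0.362 and 0 kb in the OPC lists, a change of 2.32 ± 0.19 (adjusted p = 0.00192). Rgs10 had 2.41 and 2.38 kb in the OL lists, against 0.612 and 0 kb in the OPC lists, but with 50 kb on each side its change was −0.10. Rgs16 had 7.62 and 6.599 kb in the OL lists, against 2.53 and 2.67 kb in the OPC lists and a promoter peak in both OL lists alone. Rgs20 had 3.15 and 1.08 kb in the OL lists, against 8.58 and 7.61 kb in the OPC lists, a change of −1.63 ± 0.24 (adjusted p = 0.00705). The family therefore held members that went far in each direction, and all 4 of these kept the call after centring.

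Semaphorins are guidance ligands that signal through plexins and neuropilins. Of 35 members tested, with the MICAL oxidoreductases that act below plexins on actin, 11 were wider (31.4%) and 8 narrower, and 12 and 5 after centring, with a median change of 0.27. The order of the counts turned with the 3 kb filter, at 10 wider and 11 narrower of 29, while 1 member was tested only through OL and 1 only through OPC. Sema4d (chr13:51685529-51793678), a membrane-bound ligand of plexin B1 known from oligodendrocytes, had 40.3 and 37.3 kb in the OL lists, against 5.78 and 6.35 kb in the OPC lists, a change of 2.49 ± 0.16 (adjusted p = 0.0015). Sema5a, known as an inhibitory axon guidance protein of oligodendrocytes in the optic nerve, had 54.2 and 65.9 kb in the OL lists, against 16.3 and 15.6 kb in the OPC lists, a change of 1.84 ± 0.15 (adjusted p = 0.00192). Its window held 21 regions of OL alone among 39, the most of the genes named, and no promoter peak in any list. Mical3 had 45.3 and 49.4 kb in the OL lists, against 8.88 and 8.01 kb in the OPC lists, a change of 2.36 ± 0.16 (adjusted p = 0.00153). Plxdc2, a membrane protein with a plexin-like domain, was narrower, with 1.58 and 0.374 kb in the OL lists, against 14.6 and 11.8 kb in the OPC lists. Ephrins and Eph receptors, a second guidance system, counted 3 wider and 6 narrower (40%) of 15, and 2 and 3 after centring, with a median change of −0.46. Of the 15, 6 were tested only through OPC and 1 only through OL, and at 3 kb the counts were 2 wider and 0 narrower of 3. Epha5 had 0.845 and 0 kb in the OL lists, against 4.34 and 3.46 kb in the OPC lists, a change of −1.85 ± 0.23 (adjusted p = 0.00411), and Efnb2, a membrane ligand, had 0.647 and 0 kb in the OL lists, against 2.02 and 2.25 kb in the OPC lists. Epha7 had 1.52 and 0 kb in the OL lists, against 4.76 and 1.09 kb in the OPC lists, with OPC of EpiSC5 lower than OL of 129O1, so the groups overlap although each line fell. Epha10, which lacks kinase activity, was wider, with 2.13 and 2.87 kb in the OL lists, against 0 and 1.18 kb in the OPC lists, and its window is shared with Cdca8. Of these Eph genes only Efnb2 lost its call after centring. Slits, Robos, netrins and Unc5 receptors counted 4 wider and 4 narrower of 18 (3 and 2 after centring).

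**Figure D3:**
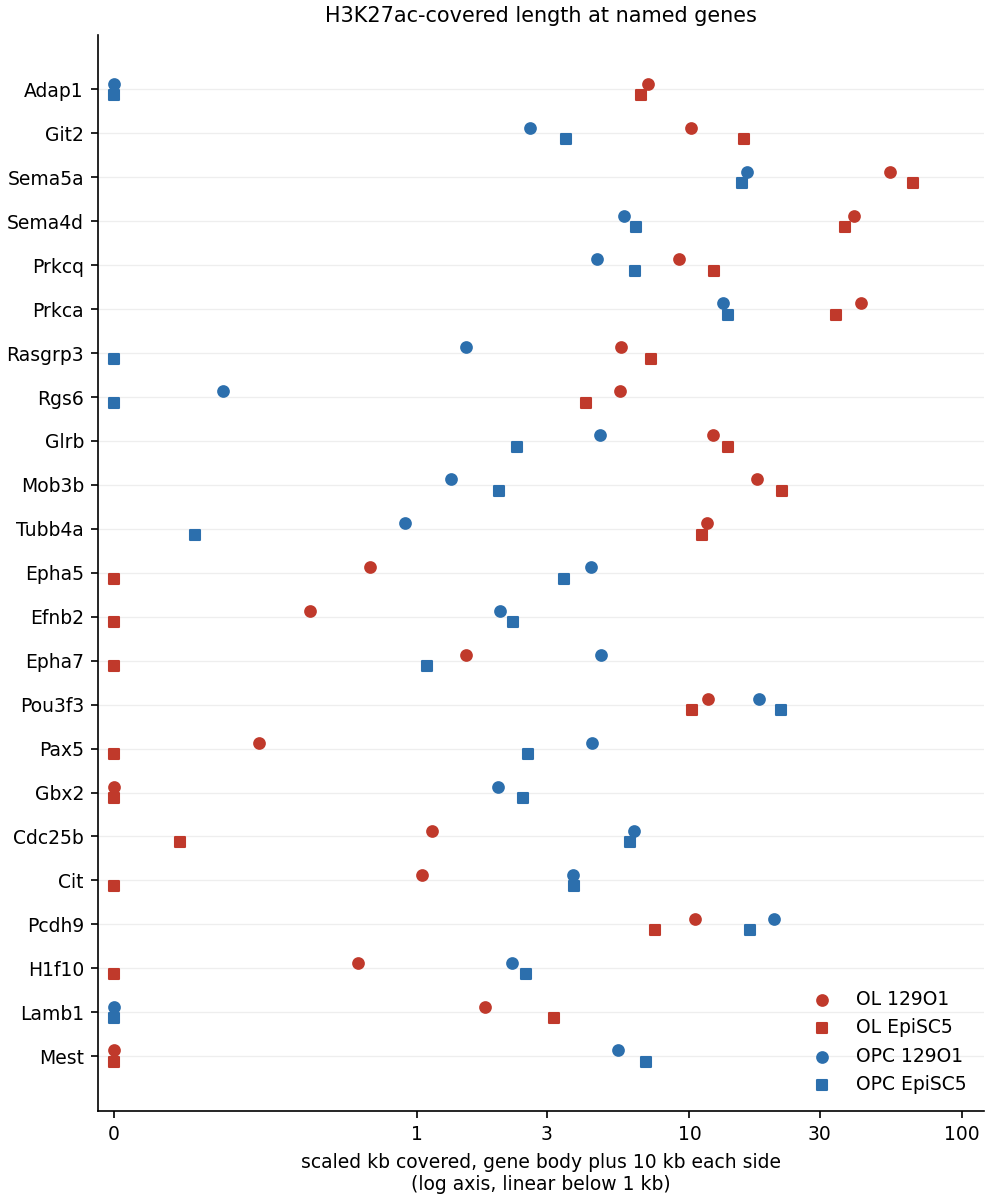
Scaled H3K27ac-covered length of selected named genes, 1 gene per row, in kb on an axis that is logarithmic above 1 kb and linear below it, with OL in red, OPC in blue, circles for 129O1 and squares for EpiSC5. Red and blue markers are well apart in most rows, as for Sema4d and Cdc25b, and overlap at Epha7.

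Some receptor families had few tested members, several of which passed the filter through 1 state only. Of 10 GABA and glycine receptor genes, 3 were wider (30%) and 2 narrower, and 2 and 1 after centring, with a median change of −0.06. Among them 2 were tested only through OL and 2 only through OPC, and at 3 kb 1 was wider and 1 narrower of 4. Glrb, the beta subunit that anchors glycine receptors, had 12.2 and 13.9 kb in the OL lists, against 4.703 and 2.33 kb in the OPC lists, a change of 1.69 ± 0.26 (adjusted p = 0.00728). Gabrr2 had 1.102 and 3.87 kb in the OL lists, against 0.264 and 0.3103 kb in the OPC lists and lost its call after centring, and Gabrg3 had 3.52 and 1.84 kb in the OL lists, against 1.702 and 0.801 kb in the OPC lists. At Glrb each OL list lay above both OPC lists. Of 1468 olfactory and vomeronasal receptor genes only 13, in 12 loci, reached 1 kb, and 4 in 3 loci were wider (30.8%) and 1 narrower (4 and 0 after centring). The median change of the 13 was −0.44, 4 of them were tested only through OL and 5 only through OPC, and none had a mean of 3 kb. Olfr279 had 1.98 and 2.48 kb in the OL lists, against 0 kb in both OPC lists, and Olfr281 had 2.17 and 2.12 kb in the OL lists, against 0 kb in both OPC lists. Each rests on 1 region near the gene, Olfr1393 (2.83 and 4.01 kb in the OL lists, against 0 kb in both OPC lists) shares its peaks with Olfr1392 and its window also with Mgat1, and Olfr1513 (0.715 and 0 kb in the OL lists, against 2.28 and 2.55 kb in the OPC lists) lost its call after centring. A peak within 10 kb does not show that such a receptor is used.

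Families of the cytoskeleton, membrane lipids and membrane traffic differed among themselves. They are given by counts, to be read against 12.7% wider and 16.9% narrower overall (12.2% and 4.34% after centring), and by examples picked after their values were seen. Tubulins and microtubule-associated proteins counted 18 wider (27.7%) and 9 narrower of 65 (17 and 1 after centring). Spectrins, ankyrins and band 4.1 proteins, which tie membrane to actin, counted 9 wider (25%) and 4 narrower of 36 (9 and 2). Epb41l2, a band 4.1 protein, had 51.7 and 48.05 kb in the OL lists, against 4.65 and 7.59 kb in the OPC lists and was called wider. Dyneins and dynactins counted 7 wider (20%) and 2 narrower of 35, but 3 and 0 after centring. Actin filament regulators counted 16 wider (16%) and 21 narrower of 100 (15 and 3), and myosins 7 wider (17.5%) and 9 narrower of 40 (6 and 4). Kinesins stood at 7 wider (18.9%) and 7 narrower of 37 (6 and 1), with Kif26a at 9.98 and 7.37 kb in the OL lists, against 1.09 and 0.262 kb in the OPC lists. Sphingolipid metabolism counted 13 wider (26.5%) and 6 narrower of 49 (12 and 2). Without its 4 members of the marker lists it counted 10 wider and 6 narrower of 45. Phospholipid and ether lipid synthesis counted 13 wider (22%) and 5 narrower of 59 (14 and 0), among them Agpat4, an acyltransferase of phosphatidic acid synthesis, at 19.3 and 24.7 kb in the OL lists, against 6.53 and 5.92 kb in the OPC lists. Fatty acid synthesis and elongation counted 8 wider (15.7%) and 6 narrower of 51 (9 and 0), among them the very-long-chain elongase Elovl7 at 15.1 and 19.6 kb in the OL lists, against 4.16 and 3.404 kb in the OPC lists. Cholesterol synthesis and transport counted 15 wider (19.5%) and 9 narrower of 77 (15 and 2). Lipases and phospholipases A and D stood even at 8 wider (16.7%) and 8 narrower of 48 (8 and 1), and peroxisome genes at 4 wider (10.8%) and 8 narrower of 37 (4 and 0).

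Trafficking and lysosomal families varied in their share of wider members, some above the background and some near or below it. Clathrin, its adaptors and other endocytosis genes counted 16 wider (19.5%) and 7 narrower of 82 (16 and 2 after centring). Ap3b1, a subunit of the AP-3 adaptor that sorts cargo to lysosomes, had 15.1 and 17.6 kb in the OL lists, against 2.61 and 3.099 kb in the OPC lists, and Sh3gl3, an endophilin, had 18.99 and 27.2 kb in the OL lists, against 4.13 and 4.28 kb in the OPC lists. At both genes OL lay above OPC in each line. Autophagy genes counted 10 wider (17.9%) and 2 narrower of 56 (10 and 0), among them Uvrag, a partner of the class III phosphoinositide 3-kinase, at 14.7 and 15.3 kb in the OL lists, against 4.37 and 4.096 kb in the OPC lists. Lysosomal proteins counted 13 wider (17.8%) and 8 narrower of 73 (13 and 1), although 45 were lower in OL in both lines and 22 higher in both. SNAREs, synaptotagmins and exocytosis genes stood even at 14 wider (15.7%) and 14 narrower of 89 (11 and 4). Sorting nexins, retromer and ESCRT counted 14 wider (12.6%) and 11 narrower of 111 (14 and 1). The COPI, COPII and Golgi tether genes counted 10 wider (10.3%) and 9 narrower of 97 (10 and 2), and Rab GTPases with TBC proteins 12 wider (14.6%) and 10 narrower of 82 (10 and 4). Tetraspanins counted 6 wider (27.3%) and 2 narrower of 22 (4 and 0), with a median change of 0.44. TRP and Piezo channels counted 7 wider (28%) and 1 narrower of 25 (7 and 0), 5 of the 25 being tested only through OL and the count at 3 kb being 2 wider and 1 narrower of 12, with Trpc4 at 3.13 and 6.06 kb in the OL lists, against 0 kb in both OPC lists. Potassium channels counted 6 wider (12%) and 13 narrower (26%) of 50 (5 and 7).

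Among genes of mitosis nearly every called gene was narrower in OL. Of 97 genes of mitosis, the kinetochore and the spindle, 48 were narrower (49.5%) and 1 wider, with a median change of −0.62. After centring 16 were narrower and 2 wider, and 16 of 97 stands beside a background of 4.34%. Of the 97, 29 passed the filter only through OPC and 0 only through OL, and at 3 kb 12 were narrower and 2 wider of 31, with a median change of −0.34. Without the 7 members that are also in the cell type marker and cell cycle lists, 41 of 90 were narrower. Cdc25b (chr2:131186436-131198511), the phosphatase that starts mitosis by activating cyclin-dependent kinase, had 1.14 and 0.218 kb in the OL lists, against 6.26 and 6.08 kb in the OPC lists, a change of −2.15 ± 0.23 (adjusted p = 0.00313). Its promoter had a peak in both OPC lists alone, and its window also holds Cenpb. Cit, the citron kinase of cytokinesis, had 1.04 and 0 kb in the OL lists, against 3.74 and 3.77 kb in the OPC lists, and Kif20b, a kinesin of the central spindle, had 0.665 and 0 kb in the OL lists, against 2.57 and 3.38 kb in the OPC lists. Cit kept its call after centring and Kif20b did not. Mad1l1, a spindle checkpoint protein, was the 1 wider member, with 21.9 and 20.9 kb in the OL lists, against 14.7 and 13.4 kb in the OPC lists and a change of 0.57 ± 0.15 (adjusted p = 0.0357), and its long window takes in 25 regions. Cyclins, cyclin-dependent kinases and their inhibitors counted 4 wider and 18 narrower of 65 (6 and 10 after centring). Without their 7 members of the marker lists, 3 were wider and 13 narrower of 58. Of the 65, 16 were tested only through OPC and 1 only through OL, and at 3 kb 4 were wider and 8 narrower of 30. Ccnd2, the D-type cyclin that carries mitogen signals into the cycle, had 0.305 and 0 kb in the OL lists, against 4.53 and 5.06 kb in the OPC lists, and its partner Cdk6 had 0.969 and 0.705 kb in the OL lists, against 10.5 and 6.02 kb in the OPC lists. DNA replication genes counted 3 wider and 17 narrower of 54 (4 and 6). Without their 5 members of the marker lists, 3 were wider and 14 narrower of 49. Among the 54, 9 were tested only through OPC and 1 only through OL, and at 3 kb 1 was wider and 5 narrower of 17. Dut, which removes dUTP, had 0 kb in both OL lists, against 2.73 and 3.31 kb in the OPC lists.

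Histone genes lie in clusters, and every called member was narrower. Of 73 tested in 18 loci, 37 in 11 loci were narrower (50.7%) and 0 wider, and 7 members were narrower after centring, with a median change of −0.615 and 3 members tested only through OPC. At 3 kb 44 were narrower and 0 wider of 64. Neighbours within a cluster share peaks, so the number of loci is the number of separate observations. H4c12 (chr13:21750145-21750553), a replication-dependent histone H4 gene that shares its peaks with H2ac15, had 2.15 and 1.99 kb in the OL lists, against 6.26 and 6.55 kb in the OPC lists, a change of −1.27 ± 0.17 (adjusted p = 0.00572). H3c8, which shares its peaks with H3c7, had 5.37 and 3.98 kb in the OL lists, against 9.77 and 11.99 kb in the OPC lists and lost its call after centring. By number of peaks H4c12 stood at 0.29 and H3c8 at 0.21, both above 0, and the 1 region in the window of H4c12 was present in all 4 lists. H1f10, a linker histone on its own chromosome 6 locus, had 0.808 and 0 kb in the OL lists, against 2.25 and 2.52 kb in the OPC lists and was not called after centring.

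Protocadherins, adhesion proteins of which most are encoded in 3 neighbouring clusters on chromosome 18, counted 39 narrower (84.8%) and 1 wider of 46. These 46 genes lie in 10 loci, of which 5 were narrower, and only 2 members were narrower after centring. The median change was −0.71, 3 members were tested only through OPC, and at 3 kb 38 were narrower and 1 wider of 41. The clustered genes share their peaks, so their count is not one of separate genes. Pcdhac1 had 2.63 and 1.38 kb in the OL lists, against 4.21 and 3.93 kb in the OPC lists, and Pcdhb16 had 0.595 and 0.533 kb in the OL lists, against 1.95 and 1.87 kb in the OPC lists, neither called after centring. The unclustered genes moved separately. Pcdh9 (chr14:93013700-93892834) had 10.4 and 7.48 kb in the OL lists, against 20.5 and 16.7 kb in the OPC lists, a change of −0.99 ± 0.16 (adjusted p = 0.00947), called also after centring. Pcdh7 was the 1 wider member, with 24.2 and 27.01 kb in the OL lists, against 12.4 and 12.9 kb in the OPC lists and a change of 0.96 ± 0.15 (adjusted p = 0.00812). Adhesion G protein-coupled receptors counted 0 wider and 6 narrower of 17 (0 and 1 after centring).

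Several growth factor and signalling families had more narrower than wider members before centring. Fibroblast growth factors, their receptors and the Sprouty and Spred inhibitors counted 11 narrower (50%) and 2 wider of 22, with 3 and 2 after centring and a median change of −0.66. Only through OPC 3 of the 22 were tested and only through OL 1, and at 3 kb 9 were narrower and 2 wider of 15. Without 7 members of the marker lists the counts were 5 narrower and 2 wider of 15. Fgf1, a ligand of all Fgf receptors, had 0.226 and 0 kb in the OL lists, against 10.2 and 6.79 kb in the OPC lists. Fgf14, an intracellular relative that modulates sodium channels, had 0.929 and 1.56 kb in the OL lists, against 5.09 and 7.51 kb in the OPC lists, a change of −1.70 ± 0.17 (adjusted p = 0.00278). Fgfrl1, a receptor without a kinase domain, had 4.28 and 3.502 kb in the OL lists, against 8.33 and 8.67 kb in the OPC lists and lost its call after centring. Fgf7, a ligand of Fgfr2, was wider, with 6.13 and 11.4 kb in the OL lists, against 0 and 0.264 kb in the OPC lists, and its printed promoter window had a peak in OL alone. Other receptor tyrosine kinases for growth factors counted 4 wider and 12 narrower of 34 (4 and 6 after centring). Of these 34, 7 were tested only through OPC and 2 only through OL, and at 3 kb 2 were wider and 8 narrower of 17. Wnts, Frizzleds and their regulators counted 6 wider and 14 narrower of 43 (5 and 6). Here 8 were tested only through OPC and 5 only through OL, and at 3 kb 3 were wider and 11 narrower of 23. Wnt5a, a ligand of the noncanonical pathway, had 0.931 and 0 kb in the OL lists, against 4.19 and 5.78 kb in the OPC lists. Notch ligands, receptors and targets counted 2 wider and 9 narrower of 33 (2 and 2), and TGF-beta and BMP genes 6 wider and 12 narrower of 46 (6 and 3). Bmper, a secreted BMP-binding protein, had 0.863 and 0 kb in the OL lists, against 5.41 and 6.45 kb in the OPC lists. The 34 genes of insulin-like growth factor signalling stood nearly even at 7 wider and 8 narrower (7 and 4), but the binding proteins Igfbp3 (0.698 and 0 kb in the OL lists, against 4.29 and 4.996 kb in the OPC lists) and Igfbp5 (0.903 and 0 kb in the OL lists, against 3.99 and 5.05 kb in the OPC lists) were both narrower.

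Laminins, nidogens and the dystroglycan complex, which link the basement membrane to the cytoskeleton, counted 12 narrower (50%) and 4 wider of 24, and 3 and 4 after centring. The median change was −0.63, 4 of the 24 were tested only through OPC and 1 only through OL, and at 3 kb 5 were narrower and 3 wider of 13. Sgce (chr6:4674350-4747204), epsilon-sarcoglycan, an imprinted gene that shares its window with the imprinted Peg10, had 0.4102 and 0.248 kb in the OL lists, against 5.76 and 4.73 kb in the OPC lists, a change of −2.23 ± 0.18 (adjusted p = 0.00192). Utrn, the dystrophin relative utrophin, had 3.17 and 1.605 kb in the OL lists, against 8.56 and 6.62 kb in the OPC lists, a change of −1.37 ± 0.19 (adjusted p = 0.0056). Sgcz, zeta-sarcoglycan, had 1.08 and 1.86 kb in the OL lists, against 5.12 and 4.996 kb in the OPC lists and lost its call after centring. Lamb1, the beta 1 chain of laminin, was wider, with 1.78 and 3.18 kb in the OL lists, against 0 kb in both OPC lists and a change of 1.77 ± 0.27 (adjusted p = 0.00765). The gain at Lamb1 rests on 2 regions of OL alone.

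Transcription factor families of embryonic patterning had more narrower than wider members before centring. Homeobox, Pax and Tshz genes outside the Hox clusters counted 20 narrower (43.5%) and 4 wider of 46, and 6 and 4 after centring, with a median change of −0.51. Of the 46, 8 were tested only through OPC and 1 only through OL, and at 3 kb 10 were narrower and 4 wider of 24. Pax5 had 0.479 and 0 kb in the OL lists, against 4.39 and 2.56 kb in the OPC lists, a change of −1.85 ± 0.20 (adjusted p = 0.00333), and Gbx2, a factor of the midbrain and hindbrain boundary, had 0 kb in both OL lists, against 1.98 and 2.46 kb in the OPC lists, a change of −1.68 ± 0.26 (adjusted p = 0.00749). Neither had a promoter peak in OL of either line, and that of Gbx2 was present in both OPC lists. Tshz2 had 0.889 and 2.37 kb in the OL lists, against 6.78 and 5.83 kb in the OPC lists and lost its call after centring, while its paralogue Tshz3 was wider, with 6.49 and 5.32 kb in the OL lists, against 2.78 and 2.89 kb in the OPC lists. POU factors counted 4 narrower (50%) and 0 wider of 8, and 1 and 0 after centring, with a median change of −0.62. At 3 kb 3 were narrower of 3, and 1 of the 8 was tested only through OPC. Pou3f3 had 11.7 and 10.2 kb in the OL lists, against 17.98 and 21.7 kb in the OPC lists, Pou3f2 had 12.9 and 8.17 kb in the OL lists, against 19.9 and 14.4 kb in the OPC lists, and Pou2f1 had 4.29 and 3.17 kb in the OL lists, against 7.74 and 8.14 kb in the OPC lists. All 3 kept a promoter peak in all 4 lists and lost the call after centring. Another promoter window of Pou2f1, at an inner start, had a peak in both OL lists alone, against the direction of the gene's change. The 2 Pou3f genes had more peaks in OL than in OPC (0.87 for Pou3f3 and 0.34 for Pou3f2 on the log2 scale). Hox genes counted 6 narrower, in 2 loci, and 0 wider of 19 in 3 loci, with none called after centring. Their median change was −0.494 in 129O1 and 0 in EpiSC5, with 8 of 19 lower in OL in both lines and 0 higher in both. A change of 0 can also mean no covered length in either list of a line. The Hox median was 0.919 without the 129O1 OPC list and −1.701 without the EpiSC5 OPC list, so it depended on the lists kept. Zic, Gli, Gata, Egr and related zinc finger factors counted 10 wider and 22 narrower of 80 (10 and 7). This group also takes in the Zbtb, Prdm, Ikaros and Bcl6 genes, so its counts are not those of patterning factors alone. Insm1, a neuroendocrine zinc finger factor, had 0 kb in both OL lists, against 3.05 and 3.82 kb in the OPC lists.

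**Figure D4:**
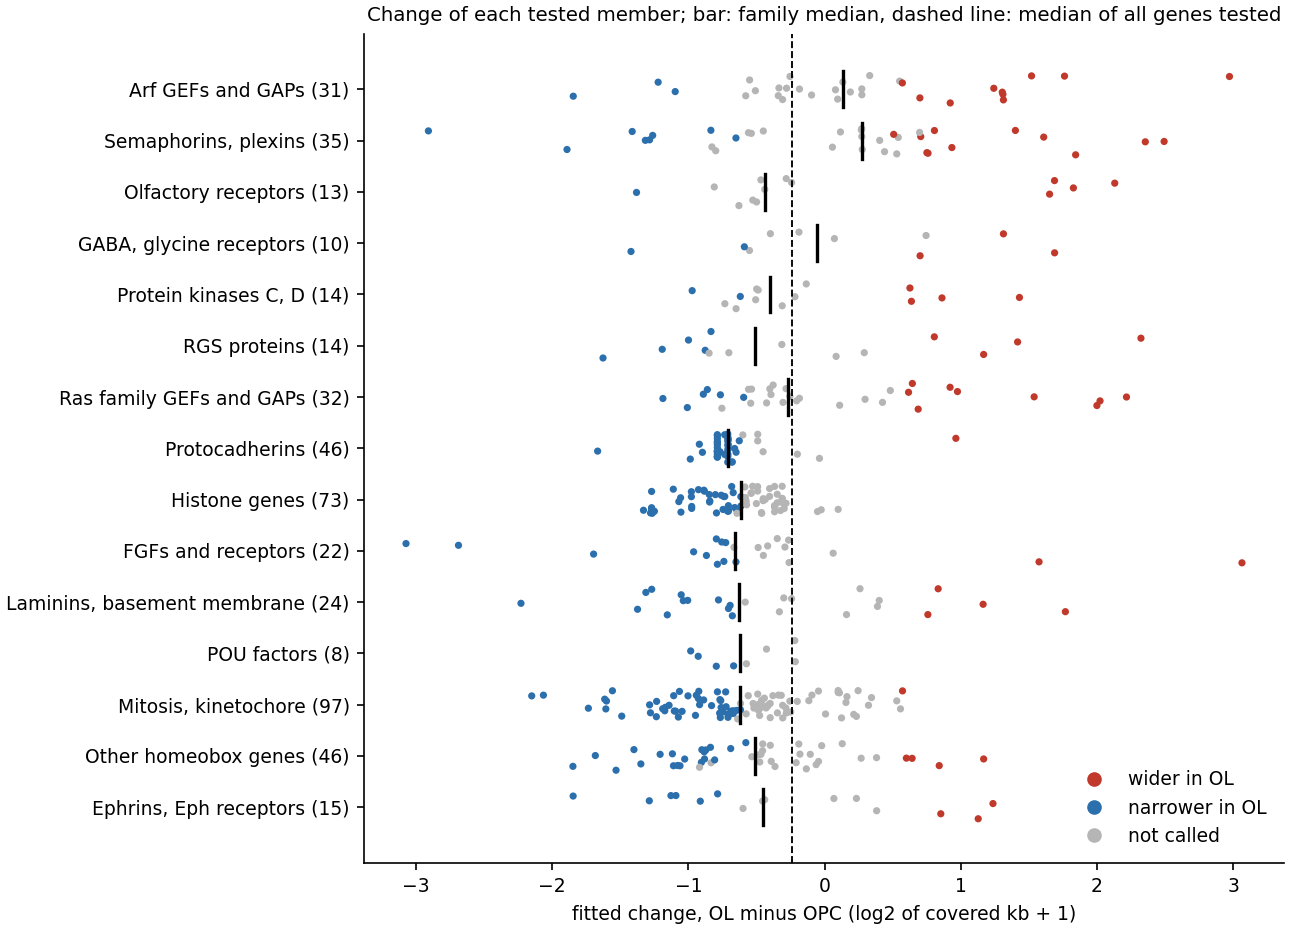
Change in covered length for every tested member of 15 of the families, OL relative to OPC on the log2(kb + 1) scale, with 1 point for each gene, wider members in red, narrower ones in blue and the family's median as a bar. The dashed line marks the median gene at −0.24, and families with both wider and narrower members, such as regulators of G protein signalling, spread to both sides of it.

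The families of general cell upkeep given here, picked after their counts were seen, lay at or under the background shares in both directions. A low share of calls is not a lack of change. Cytosolic ribosomal proteins counted 2 wider and 11 narrower of 80 (1 and 2 after centring). Yet 70 of the 80 were lower in OL in both lines and 3 higher in both, against 57.4% lower in both over all tested genes. Their median change was −0.372, against −0.241 for the median gene. Translation factors counted 3 wider and 7 narrower of 77 (2 and 0). Aminoacyl-tRNA synthetases counted 0 wider and 3 narrower of 39, with none called after centring. The respiratory chain and ATP synthase counted 7 and 10 of 99 (8 and 2), splicing factors 7 and 22 of 143 (7 and 4), and the proteasome 1 and 8 of 48 (2 and 2). Of 310 zinc finger genes named Zfp or Zkscan, 19 were wider and 38 narrower (23 and 5).

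MicroRNA genes were described without a test, by the covered length within 10 kb of each of 919 autosomal hairpins in 760 loci. The mature sequences of those the results turn on are printed from RefSeq (GRCm38.p6), 5′ to 3′, with the seed (bases 2 to 8) in capitals, since the seed sets which transcripts a microRNA pairs with. The first 2 are known to promote oligodendrocyte differentiation in mice. The next 4 come from a pair of paralogous clusters on chromosomes 13 and 8 whose windows went opposite ways, and the last 5 from loci whose windows were narrower.
miR-219a-5p: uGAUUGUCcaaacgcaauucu
miR-338-3p: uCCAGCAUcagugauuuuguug
miR-27b-3p: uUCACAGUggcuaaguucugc
miR-27a-3p: uUCACAGUggcuaaguuccgc
miR-24-3p: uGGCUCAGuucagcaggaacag
miR-23a-3p: aUCACAUUgccagggauuucc
miR-15b-5p: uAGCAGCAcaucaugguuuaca
miR-16-5p: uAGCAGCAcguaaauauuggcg
miR-200b-3p: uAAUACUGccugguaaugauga
miR-429-3p: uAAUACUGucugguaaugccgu
miR-335-5p: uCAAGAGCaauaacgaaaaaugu
miR-27a-3p and miR-27b-3p share the seed UCACAGU, miR-15b-5p and miR-16-5p share AGCAGCA, and miR-200b-3p and miR-429-3p share AAUACUG. miR-24-3p is the same sequence from Mir24-1 on chromosome 13 and from Mir24-2 on chromosome 8.

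Of the 919 hairpins, 23 (2.5%) lay under a peak in both OL lists alone, 11 (1.2%) in both OPC lists alone and 75 in all 4 lists. A window change of at least 1 on the log2(kb + 1) scale in both lines was counted for hairpins. It was found for 42 in 37 loci in the wider direction (4.57%) and for 30 in 25 loci in the narrower direction (3.26%). By the same rule 5.12% of the tested genes were wider and 3.72% narrower, so the hairpin shares lay near those of genes. The genes had passed the 1 kb filter, and the hairpins had no filter. Mir219a-2 had 14.3 and 14.4 kb in the OL lists, against 0.671 and 0.853 kb in the OPC lists, in a window it shares with Cercam. Mir338, within Aatk, had 6.12 and 4.91 kb in the OL lists, against 1.89 and 1.64 kb in the OPC lists. At these 2 loci each OL list lay above both OPC lists. The other locus of miR-219a-5p, Mir219a-1 on chromosome 17, had 7.197 and 5.52 kb in the OL lists, against 7.11 and 7.92 kb in the OPC lists, with a peak at the hairpin in all 4 lists and changes of 0.02 in 129O1 and −0.45 in EpiSC5. The cluster within Aopep on chromosome 13 was higher in OL, with Mir23b at 5.07 and 5.25 kb in the OL lists, against 0 and 1.08 kb in the OPC lists, Mir27b at 5.27 and 5.48 kb in the OL lists, against 0 and 1.08 kb in the OPC lists and Mir24-1 at 5.699 and 5.99 kb in the OL lists, against 0 and 1.08 kb in the OPC lists. The paralogous cluster on chromosome 8 was higher in OPC, with Mir23a at 0.418 and 0 kb in the OL lists, against 2.48 and 1.36 kb in the OPC lists, Mir27a at 0.282 and 0 kb in the OL lists, against 2.34 and 1.18 kb in the OPC lists and Mir24-2 at 0.156 and 0 kb in the OL lists, against 2.204 and 1.001 kb in the OPC lists. The windows of the chromosome 13 and chromosome 8 clusters stood in opposite order, although both encode miR-24-3p and a miR-27 of the same seed. No named hairpin of either cluster lay under a peak in any list, so the values are those of the surrounding window. At Mir24-2 the change in EpiSC5 was −1.001, at the edge of the limit used. Mir33, within the sterol regulator gene Srebf2, had 2.01 and 2.55 kb in the OL lists, against 0 and 0.367 kb in the OPC lists. Mir15b and Mir16-2, within the condensin gene Smc4, each had 2.31 and 2.71 kb in the OL lists, against 8.59 and 9.18 kb in the OPC lists. Mir335, within the imprinted Mest, had 0 kb in both OL lists, against 4.003 and 5.53 kb in the OPC lists, and Mir200b, of an epithelial microRNA family, had 0 kb in both OL lists, against 1.82 and 2.02 kb in the OPC lists. At Mir15b, Mir16-2, Mir335 and Mir200b OPC were above OL in both lines. The hairpins of Mir15b and Mir16-2 lay under a peak in both OPC lists alone, those of Mir33, Mir335 and Mir200b under none. Host gene and microRNA share the window, and a peak there does not tell which is transcribed.

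**Figure D5:**
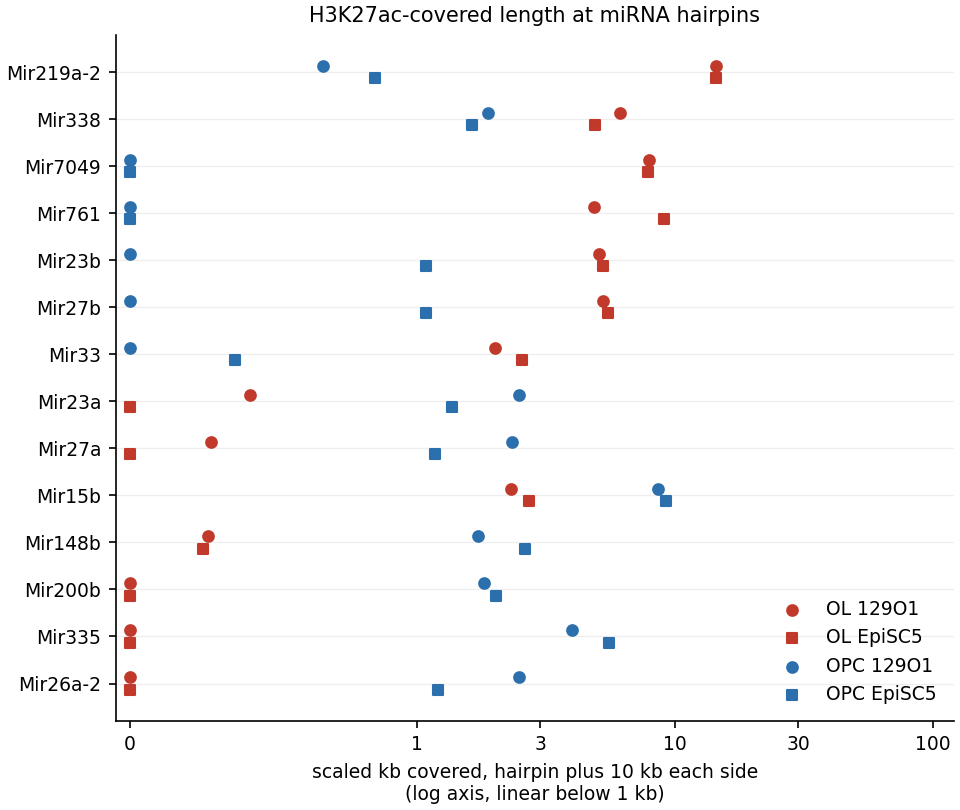
Scaled H3K27ac-covered length within 10 kb of selected microRNA hairpins, 1 hairpin per row, in kb on an axis that is logarithmic above 1 kb and linear below it, with OL in red, OPC in blue, circles for 129O1 and squares for EpiSC5. The OL markers lie to the right in the upper 7 rows, Mir219a-2 to Mir33, and the OPC markers in the lower 7, Mir23a to Mir26a-2.

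Large gains and losses outside the described families and the marker lists included genes of several functions. Tubb4a (chr17:57080061-57087600), a beta tubulin whose human mutations cause a leukodystrophy, had 11.6 and 11.2 kb in the OL lists, against 0.962 and 0.2701 kb in the OPC lists, a change of 2.97 ± 0.21 (adjusted p = 0.00158). It kept a promoter peak in all 4 lists. Mob3b, a kinase coactivator of the MOB family, had 17.6 and 21.9 kb in the OL lists, against 1.33 and 1.998 kb in the OPC lists, and Mink1, a Ste20-type kinase that shares its peaks with Chrne, had 27.1 and 30.9 kb in the OL lists, against 3.29 and 3.97 kb in the OPC lists. Further large gains were at Lhfpl2 (3.71), Fyb (3.57), Plcg2 (3.45) and Prima1 (3.27). Among losses, Nab2, a corepressor of Egr transcription factors, had 0.442 and 0.408 kb in the OL lists, against 8.16 and 7.79 kb in the OPC lists, a change of −2.65 ± 0.17 (adjusted p = 0.00144), in a window that overlaps Stat6. Kcnd2, the A-type potassium channel subunit Kv4.2, had 3.14 and 2.16 kb in the OL lists, against 20.9 and 21.6 kb in the OPC lists, a change of −2.62 ± 0.19 (adjusted p = 0.00174). Aipl1, a photoreceptor chaperone, had 0 kb in both OL lists, against 4.28 and 6.51 kb in the OPC lists, and its window also holds the mitotic gene Pimreg. The remaining large losses were at Chrm3 (−3.89), Dpyd (−2.89), Mest (−2.84), Mmp15 (−2.66) and Gm5820 (−2.58), a predicted gene that overlaps Fgf1 and was not called after centring. All 78 genes chosen by the naming rule lost their call without the filter on covered length and without either OPC list.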

How the data were processed

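Chromatin of 4 mouse cell populations, OL and OPC of 2 epiblast stem cell lines, was immunoprecipitated with an antibody to H3K27ac (9 µg per sample, per the labels) and sequenced. The authors deposited 1 peak list per library, not pooled. The submitters' processing notes name build mm10 and, with no order, Bowtie2 2.3.2, Trim Galore 0.3.1, bedtools, deepTools and Picard. The peak caller, with its control and thresholds, is not given in the sources used here. A deposited list gives a fold enrichment (a ratio over background), a −log10 p and a −log10 q per peak, and a score that in the deposited files is 10 times the −log10 q, truncated. These are the authors' values, used only to describe a list or to take its higher-scoring peaks. The 2 input samples and 3 SOX6 lists were not used here.

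Peaks on chromosomes 1 to 19 were merged per list, and their length was summed over each gene of RefSeq (GRCm38.p6) plus 10 kb each side. Each list was scaled to equal total covered length. limma 3.58.1 in R 4.3.3, with a trend in the variance, was fitted to log2(kb + 1) with state and cell line over the 12114 genes whose mean was 1 kb or more, and p-values were adjusted by the Benjamini-Hochberg method over all of them. Changes are OL minus OPC, ± SE of that fit over 2 lines. Same-numbered samples come from the same cell line, which is why line is in the model. Deviations of the lines were weakly shared between states (correlation 0.27), and 12 genes differed between lines. An exact permutation test of 2 lists against 2 cannot reach 0.05, so single values carry limma's p alone.

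Families, lists and members were chosen with earlier results of these data known. Named genes were, for each of 8 families with the highest share of wider and 8 with the highest share of narrower members, up to 3 called genes in the leading direction and 1 in the other, with the 8 largest gains and 8 largest losses outside those families, leaving out members of marker lists. Of these, 1 family and a few genes are not reported here. The filter on low values, the pseudocount, scaling, window, peak choice, number of peaks, cell line term and each library were varied. Promoter presence, microRNA hairpins and families without markers were added after the data were seen. The fit was tested on simulated data. Other work used Python 3.11.15 with pandas 2.3.3 and matplotlib 3.10.9.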

Additional observations from a re-analysis of the deposited data

Results flagged for a closer look

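A family and 2 genes had opposite directions in the 2 lines, and for each the difference was not tested. The median change of the 10 tested GABA and glycine receptor genes was 0.608 in 129O1 and −0.308 in EpiSC5. Robo2, a receptor for Slit guidance proteins, changed by −1.114 in 129O1 and 1.013 in EpiSC5, with 1.63 and 2.47 kb in the OL lists, against 4.69 and 0.719 kb in the OPC lists. Tagln3, an actin-associated protein of neural cells, changed by 1.238 in 129O1 and −1.124 in EpiSC5, with 2.75 and 0 kb in the OL lists, against 0.591 and 1.18 kb in the OPC lists. These are the 2 genes with a change of at least 1 in opposite directions.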

How the results depend on the processing

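The count of wider genes (1543) stayed within 1.5 times of that value under 9 of the 11 settings that keep all lists, and the count of narrower genes (2053) under 1 of them, the pseudocount of 0.25 kb (1598). Without a filter on covered length limma called 0 wider and 0 narrower of 20665 genes, with 4610 at an unadjusted p under 0.05. With the higher-scoring 50% of peaks it called 271 wider (2.58%) and 137 narrower (1.31%). The settings test different numbers of genes, and narrower genes were 16.9% in the main one. With a mean of at least 3 kb they numbered 1215 of 5762 (21.1%), a smaller count but a larger share. They numbered 1071 without scaling (8.86%), 526 after centring (4.34%) and 933 of 7934 over the gene body alone (11.8%). With 50 kb each side 3589 of 15795 were narrower (22.7%), from equal numbers of peaks 1198 (10.1%) and by number of peaks 573 (4.45%). Leaving out 1 list at a time gave 0 to 1169 wider and 0 to 2229 narrower genes, with the lone list of a state assumed to vary like the others. The fits without 1 list also had no cell line term. From the higher-scoring 50% the regions of OL alone numbered 4005 and those of OPC alone 2382. The named genes that reversed were Rgs10 (−0.10 with 50 kb each side) and, by number of peaks, Rapgef1 (−0.063), H3c8 (0.21), H4c12 (0.29), Pou3f3 (0.87) and Pou3f2 (0.34). The causes were not tested, beyond the fewer lists or more genes that the settings themselves bring.

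Without the replicate block for cell line, on which the pairing of OL with OPC rests, limma called 1209 wider and 1356 narrower genes. The number of reads per list is unknown, which limits what a missing peak can show.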

Other observations

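Genes of synapses and of nucleotide supply, not described above, stood as follows, with examples picked after their values were seen. Scaffolds of synapses and junctions counted 13 wider and 19 narrower of 69 (12 and 6 after centring), and glutamate receptors 5 wider and 5 narrower of 20 (5 and 2). Voltage-gated calcium channel genes counted 2 wider and 4 narrower of 19 (1 and 4). Cacnb2, a beta subunit of these channels, had 0.321 and 0 kb in the OL lists, against 5.43 and 4.91 kb in the OPC lists, and both OL lists lay under both OPC lists. Receptor-type tyrosine phosphatases counted 4 wider and 3 narrower of 18 (4 and 3), among them Ptprd, a synaptic adhesion receptor, at 3.82 and 1.74 kb in the OL lists, against 20.4 and 19.2 kb in the OPC lists. Amino acid, one-carbon and nucleotide metabolism counted 7 wider and 19 narrower of 92 (8 and 6). Tyms, which makes thymidylate for DNA synthesis and is listed here under DNA replication, had 0 kb in both OL lists, against 2.502 and 1.91 kb in the OPC lists. Slc45a4, a transporter of the sugar and monocarboxylate group, had 24.3 and 26.8 kb in the OL lists, against 4.34 and 2.897 kb in the OPC lists in a family with 6 wider and 4 narrower of 44 (5 and 0). Ano4, of the chloride channel and anoctamin group (5 wider and 3 narrower of 24, 5 and 0 after centring), had 6.34 and 12.5 kb in the OL lists, against 0.655 and 0.741 kb in the OPC lists. Dicer1, which cuts microRNA precursors, had 14.03 and 18.6 kb in the OL lists, against 3.45 and 3.97 kb in the OPC lists, in a group of tissue-regulated RNA-binding proteins with 8 wider and 17 narrower of 72 (10 and 7).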
